A study of Mus musculus with 7 samples.

Results

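A set of 8 epithelial keratin genes of the mouse salivary glands is described here: Krt7, Krt8, Krt18 and Krt19, which are used as luminal markers, and Krt5, Krt14, Krt15 and Krt17, which are used as basal markers. They were taken by gene symbol, though with earlier results of these data known, and all 8 were found among the 23366 genes of the deposited tables. All 8 also passed the filter on low counts, which left 15129 genes for testing. Polyadenylated RNA was sequenced from parotid gland at postnatal day 18 (P18, 2 libraries), from submandibular gland at that age (2 libraries) and from parotid gland of adult mice at 12 weeks (3 libraries). The labels give gland and age for each library and name no treatment, allele, strain or sex. They speak of whole tissue in one place and of isolated epithelial cells in another, and markers of fat and muscle were present in every parotid library. The labels do not say whether replicates came from separate animals, so p-values measure the spread between these libraries, which may be technical. By its title the series is about how both glands differ, which these libraries address at P18, and the adult libraries add a comparison of ages within the parotid.

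Keratins are the intermediate filament proteins of epithelial cells. A filament is built from pairs of a type I and a type II keratin, so each cell type makes matched partners. Krt8 (type II) and Krt18 (type I) are the pair of simple epithelia, which includes acinar and duct cells. Krt7 (type II) and Krt19 (type I) mark ducts of many glands. Krt5 (type II) and Krt14 (type I) are the pair of basal duct cells and myoepithelial cells, and the type I genes Krt15 and Krt17 are known from basal cells of stratified epithelia and, for Krt17, from stressed or wounded skin. In the RefSeq annotation Krt14, Krt15, Krt17 and Krt19 lie in the type I cluster on chromosome 11. Krt5, Krt7 and Krt8 lie in the type II cluster on chromosome 15. Krt18, although a type I gene, is the direct coding neighbour of Krt8 on chromosome 15, and Krt15 is the direct coding neighbour of Krt19 on chromosome 11.

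The start regions of 4 members are shown because Krt7, Krt8 and Krt18 had the most similar levels across the libraries among the members, while Krt5 followed another pattern. Each sequence runs from 250 bases before to 10 bases after the annotated start, from RefSeq on build GRCm38.p6, which is not the build of the counts. Capitals mark matches, on either strand, to 3 motifs. TATAAA is the TATA box, the letters of ATAAAAG are a variant of it that can overlap it, and GGGCGG is the GC box. These letters were chosen after the windows had been read.
Krt8, chr15:102004333-102004592, minus strand: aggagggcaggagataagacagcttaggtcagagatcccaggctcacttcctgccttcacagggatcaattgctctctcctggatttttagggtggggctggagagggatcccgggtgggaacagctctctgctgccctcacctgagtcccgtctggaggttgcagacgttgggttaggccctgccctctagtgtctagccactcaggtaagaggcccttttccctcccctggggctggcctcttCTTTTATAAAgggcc
Krt18, chr15:102027966-102028225, plus strand: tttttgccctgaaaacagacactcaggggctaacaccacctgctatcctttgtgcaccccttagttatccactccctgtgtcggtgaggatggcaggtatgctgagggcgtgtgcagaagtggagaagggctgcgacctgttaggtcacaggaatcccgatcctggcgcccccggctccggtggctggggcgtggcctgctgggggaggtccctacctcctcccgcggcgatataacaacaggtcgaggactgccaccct
Krt7, chr15:101412153-101412412, plus strand: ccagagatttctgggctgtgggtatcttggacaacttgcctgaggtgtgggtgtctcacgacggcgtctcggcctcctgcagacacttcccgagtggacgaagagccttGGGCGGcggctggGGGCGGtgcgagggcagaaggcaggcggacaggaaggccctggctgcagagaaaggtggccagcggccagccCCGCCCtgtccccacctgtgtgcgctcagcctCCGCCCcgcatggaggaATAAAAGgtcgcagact
Krt5, chr15:101712896-101713155, minus strand: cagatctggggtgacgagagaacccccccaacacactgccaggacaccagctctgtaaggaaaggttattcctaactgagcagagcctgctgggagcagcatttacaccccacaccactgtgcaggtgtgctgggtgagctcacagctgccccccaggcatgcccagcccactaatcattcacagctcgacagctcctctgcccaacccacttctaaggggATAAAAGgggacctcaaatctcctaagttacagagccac
The Krt7 window held 4 GC boxes and 1 ATAAAAG, the Krt5 window 1 ATAAAAG, the Krt8 window overlapping TATAAA and ATAAAAG matches across the annotated start, and the Krt18 window no match. Of 32851 windows of the same length, 12.7% held TATAAA, 4.95% ATAAAAG and 33.4% GGGCGG. A match is a description of letters and no evidence of binding.

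Total counts ranged from 12844534 to 28856127 per library. The 10 most abundant genes held between 9.05% of counts in P18 parotid replicate 2 and 65.4% in adult replicate 1, and edgeR's TMM composition factors ranged from 0.640 to 1.72. Levels below are normalised CPM (counts scaled to library size times TMM factor) or the authors' TPM (scaled to gene length and library). Epcam and Cdh1, which mark epithelium, and Aqp5 and Bhlha15, which mark acinar cells, had counts in all 7 libraries. The parotid product Bpifa2 was between 17550 and 499492 CPM in the parotid libraries and at most 263 CPM in the submandibular ones, and the submandibular product Smgc was at least 176496 CPM in submandibular gland and at most 24.1 CPM in parotid. P18 parotid replicate 2 stood apart with 11219 CPM over 12 adipocyte genes and 7039 CPM over 12 skeletal muscle genes, against 3393 and 1450 CPM in replicate 1. Adult replicate 1 stood apart with 845 CPM over 10 lymphocyte genes, against 472 and 376 CPM in the other adult libraries.

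Per gene length, Krt18 was the most abundant member in all 7 libraries, followed by Krt8 and Krt7, and Krt15 was the least abundant. Krt18 stood at 471 and 161 TPM in the P18 parotid libraries, at 549 and 627 TPM in the submandibular ones, and at 86.5, 123 and 117 TPM in the adult. Krt8 stood at 203 and 82.7 TPM, at 278 and 301 TPM, and at 51.4, 60.4 and 56.9 TPM in the same order of groups. The simple epithelial pair together held 81.3% and 80.0% of the summed TPM of the 8 members in P18 parotid, against 74.8% and 75.9% in submandibular gland and 68.6%, 70.0% and 67.6% in the adult. Krt7 held 10.5% and 10.6% of it in P18 parotid, 19.1% and 18.4% in submandibular libraries, and 11.7%, 14.1% and 16.2% in adult ones. The 4 basal members held 6.55% and 8.12% in P18 parotid, 5.53% and 5.38% in submandibular gland, and 10.6%, 13.3% and 13.9% in the adult. The groups did not overlap in these shares, for which no test was made.

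**Figure D1:**
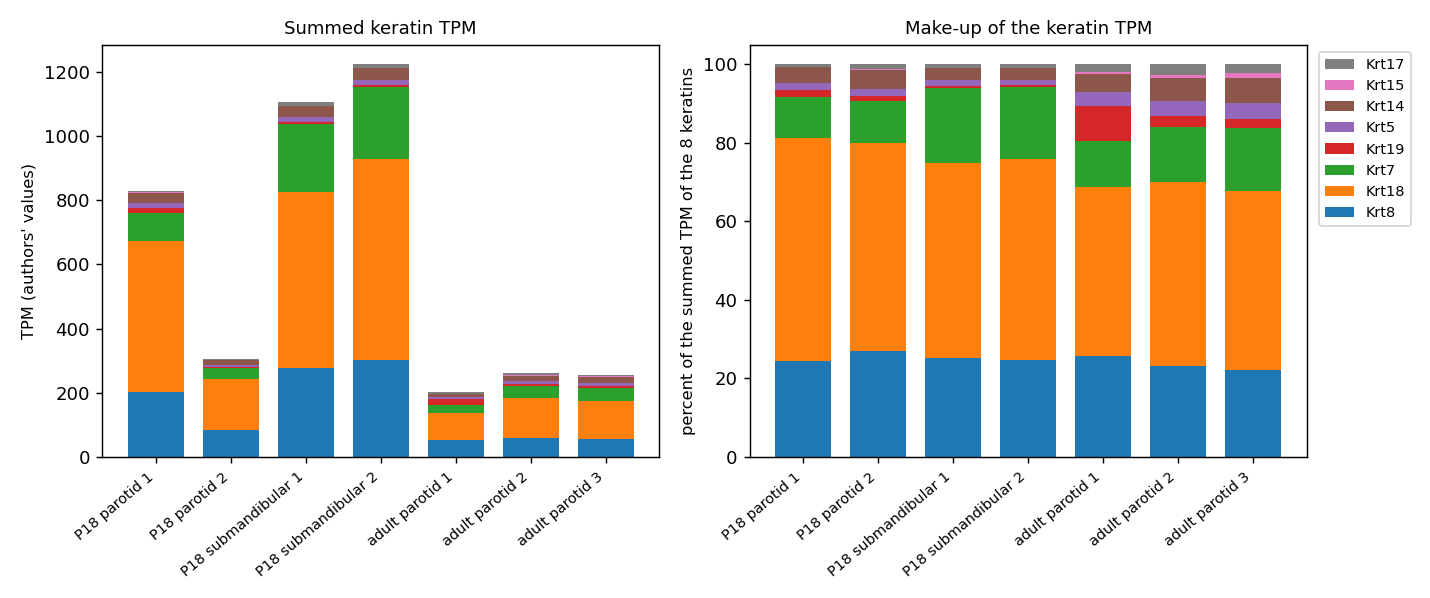
Left, the authors' TPM (linear axis) of the 8 keratins stacked by library; right, the same as percent of their sum. The sum is highest in the submandibular libraries (1104 and 1223 TPM) and the basal members take their largest share in the adult libraries.

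With TMM scaling 6 of the 8 members were higher in submandibular than in parotid gland at P18 and none was called lower, although Krt5 and Krt14 changed sign and no member passed when libraries were scaled to epithelial counts. By an unadjusted p under 0.05, 7 were higher and 0 lower, and DESeq2 called 6 higher and 0 lower. Of all 15129 genes tested 24.4% were called, 10.2% higher and 14.2% lower. The members' median log2 difference was 1.91, against -0.07 over all genes tested. In these bulk samples, fewer cells of a type and less RNA per cell cannot be told apart. All tests of this kind are edgeR's quasi-likelihood test with Benjamini-Hochberg adjustment over all genes tested, at a threshold of 0.05. Leaving out submandibular replicate 1 left 2 members called, and leaving out replicate 2 left 0 (6 higher at an unadjusted p under 0.05), where the spread of the remaining library is taken from the other groups. Without P18 parotid replicate 1 the log2 differences of Krt5, Krt7, Krt8, Krt14 and Krt18 were larger, at 2.42, 3.68, 2.73, 2.18 and 2.79.

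Among the luminal members, Krt7 differed most. It was 42.7 and 17.1 CPM in P18 parotid and 200 and 224 CPM in submandibular gland, which is 7.10-fold higher (log2 2.83 ± 0.43 SE, adjusted p = 0.00701). Both submandibular libraries lay far above both parotid ones. Krt8 was 114 and 49.8 CPM against 300 and 342 CPM, 3.92-fold higher (1.97 ± 0.37, adjusted p = 0.0123). Its partner Krt18 was 204 and 75.4 CPM against 461 and 553 CPM, 3.62-fold higher (1.86 ± 0.44, adjusted p = 0.0237). The partners thus differed by nearly the same factor. Krt19 was 5.99 and 1.88 CPM in parotid and 4.97 and 3.44 CPM in submandibular gland, so its groups overlapped (log2 0.10 ± 0.77, 95% interval -1.70 to 1.90, adjusted p = 0.940). That interval is wide enough to hold a difference of the size seen in Krt18.

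Of the basal members, 3 of 4 were called higher in submandibular gland. Krt5 was 10.6 and 4.34 CPM in P18 parotid and 21.1 and 24.2 CPM in submandibular gland, 3.02-fold higher (log2 1.60 ± 0.38, adjusted p = 0.0247). Krt14 was 16.7 and 8.15 CPM against 33.8 and 38.1 CPM, 2.89-fold higher (1.53 ± 0.35, adjusted p = 0.0214). Like Krt8 and Krt18, these partners differed between the glands by a similar factor. Krt17 was 2.45 and 1.93 CPM against 9.11 and 9.59 CPM, 4.26-fold higher (2.09 ± 0.30, adjusted p = 0.00610). Krt15 was the rarest member, with 11 and 4 counts in P18 parotid and 16 and 25 in submandibular gland, or 0.499 and 0.179 CPM against 0.947 and 1.83 CPM. It did not pass (log2 2.001 ± 0.81, 95% interval 0.11 to 3.89, adjusted p = 0.114). In 7 of the 8 members the libraries of both glands did not overlap, as in 64.9% of all genes tested.

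**Figure D2:**
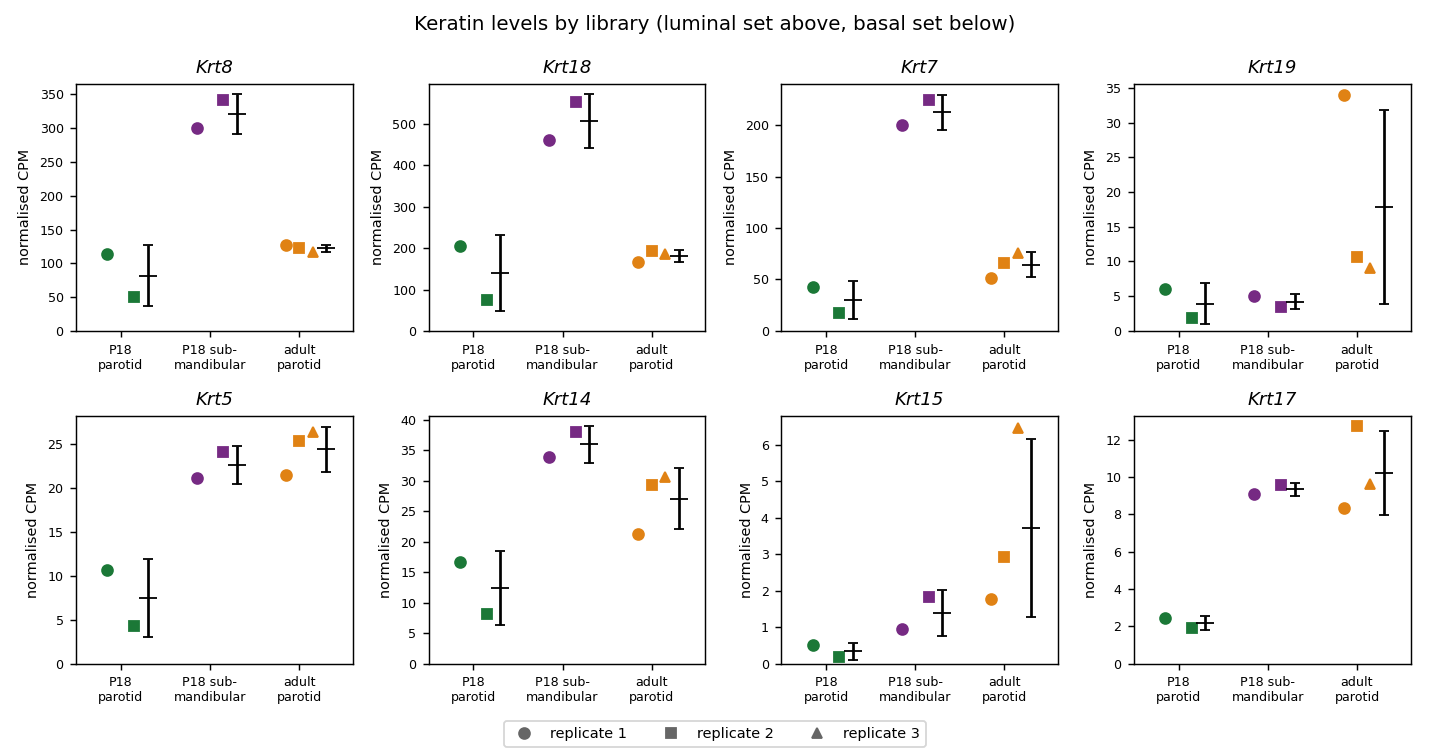
Normalised CPM (linear axes from 0) of each keratin by library, with the group mean ± SD in black (n = 2, 2 and 3). The submandibular libraries lie above both parotid groups for Krt7, Krt8 and Krt18, whereas Krt5 and Krt17 average 24.4 and 10.2 CPM in adult parotid and 22.6 and 9.35 CPM in P18 submandibular gland, an order that turns round on plain library sizes.

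General epithelial genes were higher in submandibular gland as well. Of 16 pan-epithelial genes 11 were higher and none lower (median log2 1.74, against -0.07 over all genes), with the adhesion gene Cdh1 3.58-fold and the tight junction genes Cldn4 10.1-fold and Cldn7 5.44-fold higher. Their summed level was 637 and 220 CPM in P18 parotid, 1256 and 1305 CPM in submandibular gland and 766 to 921 CPM in adult parotid. Where library sizes were set to these summed counts instead, 0 of 8 members passed. The difference of Krt7 was then 1.198 on the log2 scale (adjusted p = 0.0775), that of Krt8 0.31 (adjusted p = 0.661), that of Krt18 0.25 (adjusted p = 0.729), and those of Krt5 and Krt14 turned to -0.0407 and -0.171 (adjusted p = 0.949 and 0.790). On this scaling the median of all genes was -2.02. Without TMM, on plain library sizes, that median was -0.67 and 3 members were called higher. On log2(TPM + 1) it was -0.79, again with 3 called. Krt7, Krt8 and Krt17 were the called members both times. Under each of these scalings the log2 difference of all 8 members lay above the median of all genes tested. A change of scaling moves the members and that median nearly alike, so this repeats the TMM result and is no separate support.

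Fat and muscle markers moved the opposite way in the same libraries. The sum over 12 adipocyte genes was 3393 and 11219 CPM in the P18 parotid libraries and 31.8 and 35.8 CPM in the submandibular ones, and that over 12 skeletal muscle genes 1450 and 7039 CPM against 3.73 and 55.2 CPM. In submandibular gland 2 and 3 adipocyte genes were at 0. All 12 adipocyte and 10 of 12 muscle genes were called lower. The 12 endothelial genes summed to 560 and 1156 CPM against 214 and 186 CPM, with 10 called lower, and the 10 fibroblast genes to 6016 and 9205 against 2873 and 3238 CPM, with 4 called lower. The 10 lymphocyte genes summed to 343 and 78.5 CPM against 16.7 and 15.6 CPM, with 10 called lower. Without submandibular replicate 2 the calls of muscle, endothelial, fibroblast and lymphocyte genes were lost, while most adipocyte calls remained. That fit held 1 submandibular library and called few genes of any kind, so a lost call there is no sign of equal levels. The part of these cells in the keratin differences was not tested. Of 9 tested intermediate filament genes other than keratins 2 were higher and 3 lower, among the latter Vim of mesenchymal cells 5.47-fold (59.3 ± 1.24 against 325 ± 162 CPM, SD, n = 2 and 2) and Des of muscle 55.3-fold.

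Genes that work with keratins were followed in lists. Of 14 genes of desmosome plaques and keratin linkers 8 were higher in submandibular gland and none lower (median 1.13). Among them Dsp, which anchors keratin filaments to desmosomes, was 1.91 log2 units higher (adjusted p = 0.0278), and Evpl, a cell envelope linker, and Pof1b were 6.70-fold and 7.48-fold higher. Of 14 basal epithelial genes other than keratins 4 were higher and none lower (median 0.84), among them the transcription factor gene Trp63, the integrin gene Itga6 and the laminin gene Lamb3. Trp63, a regulator of Krt5 and Krt14 in basal cells of skin, was 1.14 log2 units higher (adjusted p = 0.0312). Of 8 contractile genes of myoepithelial and smooth muscle cells 4 were higher, with Cnn1 2.81-fold, and of 13 tested duct genes 10 were higher, with the sodium channel gene Scnn1b 9.47-fold. Of 15 tested epithelial transcription factor genes 6 were higher, and Tfap2c was 4.73-fold higher. None of these 3 lists had a member called lower.

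These list counts hold for TMM scaling. Over all genes tested, 9699 were called on log2(TPM + 1), 5955 on plain library sizes and 11651 on epithelial counts. Of those calls only 5.09%, 8.73% and 1.39% were higher. On log2(TPM + 1), 1 basal gene was higher and 5 were lower, and of the linker genes 2 were higher and 4 lower. On epithelial counts 0 basal genes were higher and 5 lower, and 0 linker genes higher and 4 lower. Plain library sizes called 1 basal gene higher and 1 lower, and DESeq2 6 higher and 1 lower. The contractile genes stood at 1 higher and 1 lower on log2(TPM + 1) and 0 and 3 on epithelial counts, and the transcription factor genes at 2 and 1, and 0 and 2. The duct genes had more higher than lower calls on both scalings, with 9 and 1, then 4 and 1. The pan-epithelial genes had 6 higher and 0 lower on log2(TPM + 1), and 1 and 0 on epithelial counts. The latter scaling is set by the summed counts of these same genes, so it cannot show their direction. Without submandibular replicate 2 edgeR kept no basal call and few duct and pan-epithelial calls. That fit held 1 submandibular library and called few genes of any kind.

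The balance between members differed as well. Ratios between 2 keratins of the same library do not depend on library scaling. Krt7 stood at 0.427 and 0.390 times the TPM of Krt8 in P18 parotid and at 0.760 and 0.748 times in submandibular gland, 1.85-fold higher by group means of the log2 ratio. The ratio of Krt19 to Krt18 was 0.0299 and 0.0254 in parotid and 0.0110 and 0.00635 in submandibular gland, 3.30-fold lower. So Krt7 was raised and Krt19 low relative to the simple pair in both submandibular libraries. The ratio of Krt5 to Krt8 was 0.0769 and 0.0718 in parotid and 0.0579 and 0.0583 in submandibular gland, 1.28-fold lower. The ratio of Krt8 to Krt18 overlapped between the glands (0.432 and 0.513 against 0.506 and 0.480), as did that of Krt5 to Krt14 (0.481 and 0.404 against 0.473 and 0.481). In 5 of 8 ratios the glands did not overlap. The share over other pairs of genes was not computed, and several ratios hold the same keratin, so this count has no background to be read against. With 2 libraries against 2 the exact two-sided permutation test cannot go below p = 0.333, so no ratio could pass.

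**Figure D3:**
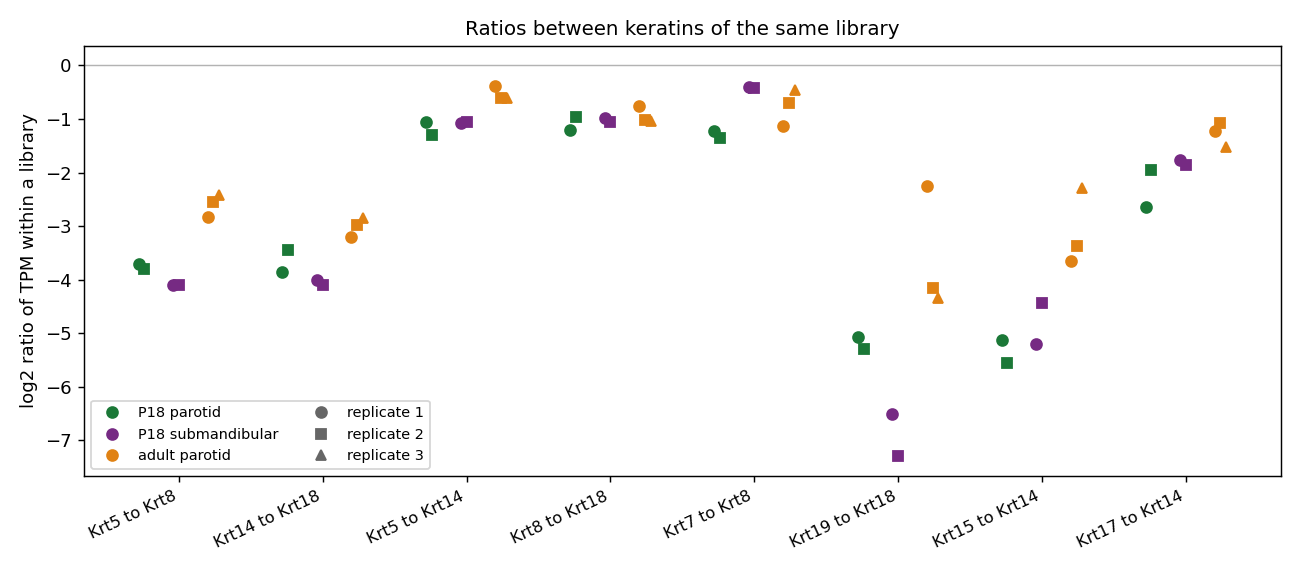
Log2 ratio of the TPM of 2 keratins within each library, coloured by group, with marker shapes for replicates. Adult parotid lies above both P18 groups for Krt5 to Krt8, Krt14 to Krt18 and Krt5 to Krt14, while Krt8 to Krt18 overlaps between all groups.

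Between P18 and adulthood, with TMM scaling, the 4 basal members were called higher in parotid and no member lower, although Krt14 changed sign on plain library sizes and on epithelial counts, and Krt5 and Krt14 on TPM. By an unadjusted p under 0.05, 6 members were higher and 0 lower, and DESeq2 called 6 higher and 0 lower. Without P18 parotid replicate 1 all 8 members were called, without its replicate 2 only Krt5 and Krt17, without adult replicate 2 only Krt17, and without both libraries that stood apart 5 were called. Over all genes tested 25.9% were called, 10.7% higher and 15.1% lower. The comparison shares the P18 parotid libraries with the one above. Krt5 rose from 10.6 and 4.34 CPM to 21.5, 25.4 and 26.4 CPM, 3.27-fold (log2 1.71 ± 0.36, adjusted p = 0.0166). Krt14 rose from 16.7 and 8.15 CPM to 21.3, 29.3 and 30.6 CPM, 2.18-fold (1.12 ± 0.33, adjusted p = 0.0417). All adult libraries lay above both P18 libraries for this pair. Krt17 rose from 2.45 and 1.93 CPM to 8.32, 12.7 and 9.65 CPM, 4.67-fold (2.22 ± 0.28, adjusted p = 0.00380). Krt15 rose from 0.499 and 0.179 CPM to 1.76, 2.92 and 6.46 CPM, 10.9-fold (3.45 ± 0.77, adjusted p = 0.0189), on 4 to 134 counts per library. Its log2 difference was 4.399 without P18 parotid replicate 1 and 2.78 without adult replicate 3, and those of Krt5 and Krt14 were 2.54 and 1.78 without P18 parotid replicate 1. Adult replicate 3, the highest in Krt15, also had the highest sum of 14 epidermal cornification genes (100.2 CPM against 54.0 and 60.5 CPM in the other adult libraries) and of the epidermal keratin gene Krt10 (9.37 TPM against 1.61 and 1.88 TPM). Their part in the Krt15 value was not tested.

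The luminal members were not called between the ages in the main edgeR fit of all libraries. DESeq2 called Krt7 (adjusted p = 0.0220) and Krt19 (adjusted p = 0.00663) higher in the adult. An edgeR fit with replicate number as a block also called Krt19 higher. Krt8 was 114 and 49.8 CPM at P18 and 127, 123 and 117 CPM in the adult (log2 0.58 ± 0.33, 95% interval -0.20 to 1.36, adjusted p = 0.224), and Krt18 was 204 and 75.4 CPM against 166, 194 and 186 CPM (0.38 ± 0.39, 95% interval -0.54 to 1.30, adjusted p = 0.494). The adult libraries were close together, while the P18 libraries lay 2.28-fold apart for Krt8 and 2.71-fold apart for Krt18. Krt7 was 42.7 and 17.1 CPM against 51.2, 66.3 and 75.3 CPM (1.11 ± 0.38, adjusted p = 0.0703). Krt19 was 5.99 and 1.88 CPM against 34.0, 10.6 and 9.02 CPM (2.17 ± 0.73, adjusted p = 0.0648), with adult replicate 1 far above the others. Without that library the difference of Krt19 was 1.32 (adjusted p = 0.129). It also had the highest lymphocyte sum of the 7, whose part in the Krt19 value was not tested. In 7 of 8 members the ages did not overlap, as in 54% of all genes tested, and Krt18 was the exception.

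Here the direction depended on library scaling. The median log2 difference over all genes tested was -0.01 with TMM, -1.24 on plain library sizes and -1.48 on log2(TPM + 1). Krt8 was then at -0.69 (adjusted p = 0.113) and -1.19 (adjusted p = 0.0142), and Krt18 at -0.89 (adjusted p = 0.0904) and -1.35 (adjusted p = 0.0207). So the simple pair was called lower in the adult on TPM. Krt7 and Krt14 turned negative on both scalings and Krt5 on TPM, none of them called, whereas Krt15, Krt17 and Krt19 stayed positive on both. Scaled to the summed epithelial counts, Krt15 alone was called (log2 2.40, adjusted p = 0.0128). Relative to the median of all genes tested, all 8 members lay above it under each of these scalings. As the members and that median move nearly alike with the scaling, this too is no separate support.

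**Figure D4:**
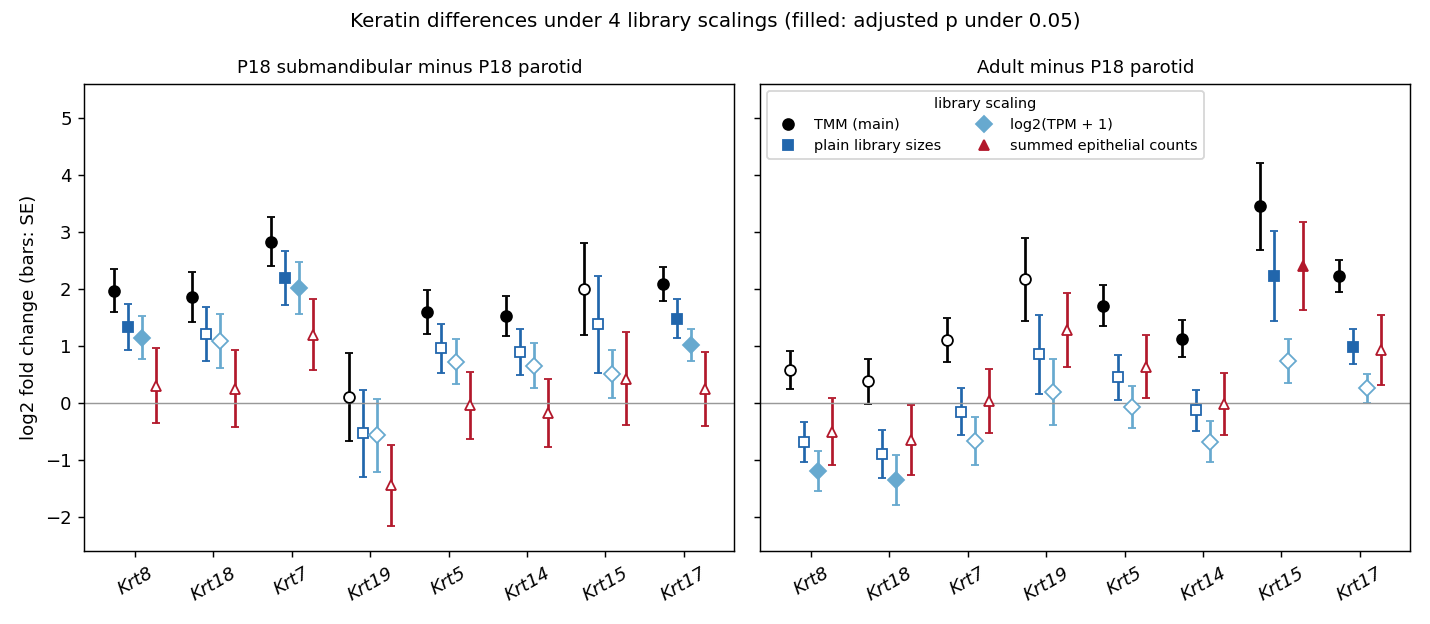
Log2 fold change ± SE of each keratin under 4 library scalings; filled symbols passed an adjusted p of 0.05. Under the epithelial scaling the submandibular differences of the 6 called members lie nearer to 0 and that of Krt19 moves to -1.44, and in the age comparison Krt8 and Krt18 pass from above 0 with TMM to -1.19 and -1.35 on log2(TPM + 1).

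The ratio of basal to simple keratins, which does not depend on scaling, was higher in each adult library than in either P18 parotid library. Krt5 stood at 0.0769 and 0.0718 times the TPM of Krt8 at P18 and at 0.140, 0.170 and 0.186 times in the adult, 2.21-fold higher. Krt14 stood at 0.0690 and 0.0912 times Krt18 at P18 and at 0.109, 0.127 and 0.139 times in the adult, 1.56-fold higher. Every adult library lay above every P18 library of either gland in both ratios. The ratio of Krt5 to Krt14 was 0.481 and 0.404 at P18 and 0.765, 0.656 and 0.654 in the adult. That of Krt17 to Krt14 was 0.161 and 0.260 at P18 and 0.428, 0.477 and 0.347 in the adult. The ratio of Krt8 to Krt18 overlapped (0.432 and 0.513 against 0.595, 0.492 and 0.488), and in 7 of 8 ratios the ages did not overlap. For this count too the share over other pairs of genes was not computed. The smallest p the exact two-sided permutation test allows for 2 against 3 libraries is 0.1. It was reached in 5 of these ratios, and the smallest adjusted p over the 16 tests of both comparisons was 0.32.

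Of 14 basal epithelial genes other than keratins, edgeR called 0 higher and 1 lower between the ages, with a median of 0.11 against -0.01 over all genes. At an unadjusted p under 0.05, 1 was higher and 2 were lower, and DESeq2 called 0 higher and 2 lower. On log2(TPM + 1) 0 were higher and 12 lower, on plain library sizes 0 and 7, and on epithelial counts 0 and 5. Over all genes tested, these scalings called 13059, 10953 and 7658 genes. Of those calls only 0.689%, 1.52% and 2.06% were higher. Nearly all calls were thus lower under these scalings, so the counts show nothing particular to basal genes. Whether the basal genes differ from the basal keratins was not tested. Itga6 fell 3.33-fold, from 134 ± 11.6 CPM (SD, n = 2) to 40.2 ± 5.88 CPM (SD, n = 3). Trp63 was 8.12 ± 2.37 CPM at P18 and 11.4 ± 2.46 CPM in the adult and did not pass (log2 0.49 ± 0.27, adjusted p = 0.207). Of the 8 contractile genes 2 were lower, Myh11 1.91-fold and Mylk 1.67-fold, and none higher. Among the desmosome and linker genes 1 was higher and 3 were lower. Pkp3, a desmosome plaque gene, was 2.36-fold higher, and the large linkers Dst, Eppk1 and Plec changed by -2.25, -2.58 and -0.996 on the log2 scale. Of the pan-epithelial genes 5 of 16 were higher and none lower, with Rab25 4.42-fold higher, and of the 13 tested duct genes 5 were higher and none lower, with the sodium channel gene Scnn1a 6.63-fold higher. These directions too depended on scaling. On log2(TPM + 1) 0 linker genes were higher and 11 lower. Of the pan-epithelial genes 0 were higher and 5 lower, and the duct genes gave the same counts. On that scaling only 0.689% of the calls over all genes were higher. The adipocyte sum was 3393 and 11219 CPM at P18 and 3660 to 4179 CPM in the adult, and the muscle sum 1450 and 7039 against 697 to 6034 CPM. The fibroblast sum was 6016 and 9205 CPM against 2054 to 2665 CPM, without overlap, with 6 of 10 genes called lower and none higher (median -1.17). The endothelial sum was 560 and 1156 CPM against 373 to 451 CPM, also without overlap, with 6 of 12 genes lower and 1 higher (median -1.21). Their part in the keratin values was not tested.

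Setting the P18 submandibular libraries beside the adult parotid orders the levels, although gland and age differ together there. Krt7, Krt8 and Krt18 were 3.30-fold, 2.62-fold and 2.78-fold higher in P18 submandibular gland (adjusted p = 0.00993, 0.0141 and 0.0208). These were 3 of 8 members, where 39.2% of all genes tested were called, 19.4% higher and 19.8% lower, and 5 of 8 did not overlap, as in 72% of all genes. On epithelial counts these calls were lost (Krt7 1.16, Krt8 0.81 and Krt18 0.91, adjusted p = 0.142, 0.365 and 0.327), and Krt15 and Krt19 were called lower in submandibular gland instead. By mean CPM the order was submandibular gland, adult parotid and P18 parotid, and the last 2 did not differ past the threshold. By mean TPM the last 2 changed places for Krt7 (59.6 in P18 parotid against 34.1 in adult), Krt8 (143 against 56.3) and Krt18 (316 against 109). Krt8 and Krt18, but not Krt7, were called lower in the adult on log2(TPM + 1), where only 0.689% of the calls over all genes were higher. Krt5 and Krt17 differed by -0.11 ± 0.34 and -0.13 ± 0.26 on the log2 scale (adjusted p = 0.817 and 0.710), and Krt14 by 0.41 ± 0.31 (adjusted p = 0.333). By mean CPM P18 parotid was the low group for these basal members, whereas by mean TPM adult parotid was the low group for Krt5 (9.34 against 10.8 TPM in P18 parotid) and Krt14 (13.7 against 23.6 TPM). Krt15 and Krt19 were highest in adult parotid on average, but their differences from submandibular gland were -1.45 ± 0.67 and -2.07 ± 0.74 (adjusted p = 0.125 and 0.0593). Krt19 was called lower in submandibular gland by DESeq2 (adjusted p = 0.00739), in the fit of these 2 groups alone (0.0343) and without both libraries that stood apart (0.00243), but its difference was -1.22 without adult replicate 1 (adjusted p = 0.132). On plain library sizes Krt5 and Krt17 turned to 0.51 and 0.49, still without a call, and Krt14 was called higher (log2 1.02, adjusted p = 0.0415). These 3 calls also rested on few libraries: without submandibular replicate 1 or 2 edgeR called 0 members (3 at an unadjusted p under 0.05 each time), and without adult replicate 2 only Krt7.

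Within P18 parotid, replicate 1 exceeded replicate 2 in all 8 members, from 1.27-fold in Krt17 to 3.18-fold in Krt19, beside pan-epithelial sums of 637 and 220 CPM. Krt17 was the member with the most similar levels in this pair. The submandibular libraries were closer. Their replicates differed by at most 0.26 log2 units in the members other than Krt15 and Krt19, which differed by 0.95 and -0.53 (replicate 2 minus replicate 1). The adult libraries spanned 0.12 log2 units in Krt8 and 1.91 in Krt19.

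Keratins outside the 8 were rare with 1 exception. The tables list 44 further keratin genes, of which 9 passed the filter on low counts. Krt23, a type I keratin, reached 59.9 and 17.8 TPM in the P18 parotid libraries, 119 and 146 TPM in the submandibular ones and 10.5, 16.8 and 19.9 TPM in the adult. In each of the 7 libraries it thus exceeded every basal member, though narrowly in adult replicate 1 (10.5 against 9.39 TPM for Krt14). With TMM scaling it was 6.67-fold higher in submandibular gland than in P18 parotid (log2 2.74 ± 0.51, adjusted p = 0.0118) and did not pass between the ages (0.61 ± 0.45, adjusted p = 0.334). Krt80, Krt10 and Krt79, the next by mean level, averaged 4.21, 3.15 and 1.48 TPM over the 7 libraries. With TMM scaling Krt80 was 2.36-fold higher in submandibular gland and 2.37-fold higher in adult than in P18 parotid (adjusted p = 0.0300 and 0.0233). Its TPM was 4.45 and 4.76 in P18 parotid, 7.01 and 4.46 in submandibular gland, and 2.90, 2.63 and 3.22 in the adult. By TPM the direction between the ages was thus the opposite, and the P18 glands overlapped.

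Across the 7 libraries the members fell into like pairs, as a description of libraries that share their groups. Pearson's r of log2 CPM was 0.990 for Krt8 with Krt18, 0.980 for Krt7 with Krt8, 0.948 for Krt5 with Krt14 and 0.945 for Krt5 with Krt17. Krt5 with Krt8 had 0.704 and Krt19 with Krt18 -0.0149. The pairs did not split cleanly into luminal and basal sets. Krt14 had 0.919 with Krt7, above its 0.894 with Krt17, and 0.862 with Krt8 and 0.851 with Krt18. Among 8589 other genes the most alike to Krt5 was Cd9 (r = 0.9999), a tetraspanin gene, which ran from 53.9 CPM in P18 parotid replicate 2 to 302 CPM in adult replicate 3. Krt18 was most like Cadps2 (r = 0.9996), a regulator of vesicle priming, Krt8 most like Dpp3 (r = 0.9981), a dipeptidyl peptidase gene, and Krt7 most like the amino acid transporter gene Slc6a14 (r = 0.9972). Slc6a14 was 12.7 and 4.75 CPM in P18 parotid, 62.5 and 68.3 CPM in submandibular gland and 15.5 to 23.7 CPM in the adult. For Krt14 the most alike gene was Paip2b, for Krt17 Fam63a, for Krt15 Rabep2 and for Krt19 Serpinb1a.

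Some counts may hold or lose reads of related sequences. In the GENCODE M21 transcripts, 29.7% of the 50-base stretches of Krt8 also occur in other genes, most of them in the pseudogene Krt8-ps (26.9%). For Krt14 the share was 13.9%, mostly with Krt16, which lies between Krt14 and Krt17 on chromosome 11, and for Krt5 12.2%, mostly with Krt6a. It was 3.99% for Krt17 and below 1% for Krt7, Krt15, Krt18 and Krt19. The genes Krt5, Krt7 and Krt8 each overlap 1 gene on the opposite strand, and whether strand was used in counting is not given in the sources used here. Values of Krt5, Krt8 and Krt14 are uncertain to that extent.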

How the data were processed

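Raw counts per gene symbol and TPM values were deposited by the authors for each library. The submitters' processing notes name build mm9 and, without roles, featureCounts 1.5.1, Bowtie2 2.2.6, DESeq2 1.20.0 and TopHat2 2.1.1. How reads were assigned to strands and repeated sequence is not given in the sources used here. A further 2 columns of the count table fit no sample's labels and are not analysed here.

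Deposited counts were filtered with edgeR's filterByExpr (minimum count 10, minimum total 15), scaled by TMM and tested with edgeR 4.0.16 (glmQLFit, glmQLFTest, R 4.3.3) in 1 fit of 3 groups (4 residual degrees of freedom), adjusting p by Benjamini-Hochberg over 15129 genes. Standard errors come from the F statistic. The test was checked on simulated counts drawn from 1 shared expression profile, with a set of genes changed. Those counts lacked the composition differences of the real libraries, so the check does not cover the choice of library scaling. Library depth, 12844534 to 28856127 counts, limits rare members such as Krt15. Deposited TPM served for levels between genes, ratios within a library and limma 3.58.1 fits; DESeq2 1.42.0 was an alternative. Other alternatives were plain library sizes, RLE factors, summed epithelial counts, no filter on low counts, removal of the 50 most abundant genes, only the groups compared, libraries left out and replicate number as a block.

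Named genes are the 8 members, the 4 most abundant other keratins, per list the 2 smallest adjusted p in each direction, and per member the 2 genes with the highest Pearson r (prior count 2, mean of at least 10 CPM), of which not all are printed. Others, such as Dsp, Trp63, Cdh1 and Plec, were chosen after their values were seen. Members and lists were chosen with earlier results of these data known. Whether equal replicate numbers pair the libraries was not settled, and the main fit treated them as unpaired. A result for 1 gene of the lists is not reported here.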

Additional observations from a re-analysis of the deposited data

How the results depend on the processing

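Values are for submandibular against P18 parotid, adult against P18 parotid, and submandibular against adult parotid, in that order. The counts of all genes called were 3686, 3915 and 5927, and of keratins 6, 4 and 3.

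On log2(TPM + 1) with limma, 9699, 13059 and 9128 genes and 3, 2 and 5 keratins were called, and with a pseudocount of 0.1 it was 9130, 13069 and 9937 genes and again 3, 2 and 5 keratins. Plain library sizes called 5955, 10953 and 8208 genes and 3, 2 and 4 keratins. Summed epithelial counts called 11651, 7658 and 3091 genes and 0, 1 and 2 keratins, the last of them Krt15 and Krt19, both lower in submandibular gland. The share of calls that were higher was 41.7%, 41.5% and 49.4% with TMM, 5.09%, 0.689% and 88.7% on log2(TPM + 1), 8.73%, 1.52% and 79.8% on plain library sizes, and 1.39%, 2.06% and 20.2% on epithelial counts. Fits of the 2 groups alone called 965, 2145 and 7751 genes and, in the first comparison, 2 keratins. Without P18 parotid replicate 2 and adult replicate 1 together, 6189, 6412 and 9254 genes and 6, 5 and 5 keratins were called. DESeq2 called 4529, 4925 and 6476 genes and 6 keratins in the second comparison.

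Directions turned in these cases, on the log2 scale. In the first comparison Krt19 turned to -0.57 and -0.62 on TPM (pseudocounts 1 and 0.1), -0.53 on plain library sizes, -1.44 on epithelial counts and -0.49 without both libraries, and Krt5 and Krt14 to -0.0407 and -0.17 on epithelial counts. In the second, Krt5, Krt7, Krt8, Krt14 and Krt18 turned to -0.0729, -0.66, -1.19, -0.68 and -1.35 on log2(TPM + 1) and to -0.0677, -0.67, -1.21, -0.71 and -1.36 with 0.1. Krt7, Krt8, Krt14 and Krt18 turned to -0.15, -0.69, -0.13 and -0.89 on plain library sizes, Krt8, Krt14 and Krt18 to -0.50, -0.0207 and -0.65 on epithelial counts, and Krt18 to -0.0855 without both libraries. In the third, Krt5 and Krt17 turned to 0.80 and 0.76 on log2(TPM + 1), 0.86 and 0.86 with 0.1, and 0.51 and 0.49 without TMM, and Krt14 to -0.15 on epithelial counts. The cause was not tested.

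Leaving out each library in turn gave 142 to 5412, 1282 to 6131 and 2119 to 7771 genes, and 0 to 6, 1 to 8 and 0 to 4 keratins. In the first comparison Krt19 ran from -0.49 (without P18 parotid replicate 2) to 1.204 and was also below 0 without submandibular replicate 1 (-0.18). In the second Krt18 ran from -0.15 (without P18 parotid replicate 2) to 1.32, and in the third Krt17 from -0.26 to 0.0548 (without adult replicate 2). Ratios without overlap numbered 5 to 8 and 7 to 8 (chosen after seeing the data). Leaving out a library cannot bring in overlap, so these counts could only stay or rise and are no check.

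With replicate number as a block, 2529, 1496 and 4060 genes and 4, 2 and 2 keratins were called. Krt5 and Krt18 of the first comparison were then at 1.65 and 1.94 (adjusted p = 0.0507 and 0.0513). In the second, Krt5, Krt14 and Krt15 were not called (adjusted p = 0.0578, 0.126 and 0.0582) and Krt19 was called higher (0.0268). In the third, Krt8 and Krt18 were not called (0.0501 and 0.0702) and Krt19 was called lower (0.0135). Deviations of libraries with the same number correlated at 0.239 between the P18 groups and from -0.0174 to 0.0844 otherwise. The first value is the same for both replicate numbers because deviations within a group of 2 libraries mirror each other. It cannot decide whether the P18 libraries were paired, and the main fit used no block.

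Depth limits Krt15, with 4 to 134 counts per library. Groups of 2 or 3 libraries leave wide intervals, and gland and age differ together in the third comparison.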
